A study of Mus musculus with 2 samples.

Results

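The GADD45 genes and a set of classical p53 response genes were examined in primary mouse hepatocytes exposed to pregnenolone 16α-carbonitrile (PCN). The group consisted of 10 genes taken by symbol from the platform annotation: Gadd45a, Gadd45b, Gadd45g, Cdkn1a, Mdm2, Ccng1, Btg2, Trp53, Bax and Phlda3. Of these, 8 had a named probe set among 15644 named genes, and Trp53 and Bax were not analysed here. Gadd45a was chosen by its log2 difference between the same arrays that are described below, and the other genes were grouped with it by family and pathway. Its difference is therefore given as a description and supports nothing by itself.

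PCN, a steroid made by synthesis, is a ligand of the rodent pregnane X receptor (PXR), which switches on genes of drug metabolism. Hepatocytes, the parenchymal cells of the liver, were isolated from a male C57BL/6 mouse aged 9 weeks. They were cultured for 24 h and then given 10 µmol/l PCN, or dimethyl sulfoxide (DMSO) as the vehicle, for 12 h. Each group was a pool of RNA from 3 samples hybridised to 1 array, with no genetic change in either group, so the comparison was between 2 arrays without replicates. No test, standard error or p-value could be given, and the words "higher" and "lower" compare these arrays only. The pool came from cells of 1 animal by the labels, and nothing states that the pooled samples were separate isolations.

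GADD45 proteins are small acidic proteins induced by stress and growth arrest. They bind PCNA, the CDK1 and cyclin B1 complex and the kinase MAP3K4, which links them to the cell cycle and to the p38 and JNK pathways. The transcription factor p53 is held low by the ubiquitin ligase MDM2 and is set free by DNA damage kinases such as ATM. It then activates genes of arrest, death and repair, Gadd45a and Mdm2 among them, and is controlled largely at the level of the protein. In the liver, Gadd45b is also known as an early gene of regeneration and of the response to xenobiotics.

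A gene was taken as measured when its GCRMA intensity, an array signal corrected for background and normalized between arrays, reached a log2 value of 5 (an intensity of 32) on at least 1 array. All 8 genes passed on both arrays, so no difference among them is a bound. Of all named genes, 6449 were measured, with a median log2 difference, PCN minus DMSO, of 0.03. The 38 bacterial and phage control probe sets above the floor differed by -0.33 to 0.16 on the log2 scale (SD 0.10). This SD covers hybridisation and scanning but not differences between cultures. As a check of the treatment label, Cyp3a11, the PXR-responsive P450, went from an intensity of 8519 to 15919. Nr1i2, the gene of PXR, read 71.9 and 70.1. The cell type label was set against markers: of 8 hepatocyte markers with a probe set, 7 were measured. All 7 were lower with PCN, beside 2735 of all 6449 measured genes, with a median log2 difference of -0.03. The differences of Alb, Ttr, Apoa1, Apob and Serpina1c, from -0.05 to -0.01, were smaller than the control probe SD. At 1.2-fold, 1 of the 7 was lower (14.3%, beside 8.95% of all genes). Alb read 21685 and 21383 and Ttr 13614 and 13469, while the largest differences were those of Asgr1, a subunit of the asialoglycoprotein receptor, from 551 to 406 (-0.44), and the transcription factor Hnf4a, from 529 to 457 (-0.21). Tat, an amino acid enzyme, lay under the floor on both arrays. Measured were 2 of 9 Kupffer cell and leukocyte markers, 2 of 10 stellate cell and fibroblast markers, 2 of 9 endothelial markers and 3 of 6 bile duct markers. The measured ones were Cd68 (1690 and 1626) and Cd14 (1619 and 1802), Dcn (351 and 313) and Acta2 (36.5 and 30.6), Stab2 (42.1 and 37.0) and Lyve1 (30.4 and 39.8), and the bile duct markers Krt19 (169 and 223), Sox9 (127 and 95.2) and Cd24a (533 and 415). These last 3 did not go one way, with log2 differences of 0.40, -0.42 and -0.36. Among the markers under the floor on both arrays were Ptprc, Adgre1, Clec4f, Lrat, Pdgfrb, Col1a1, Cdh5 and Epcam. The summed intensity of all markers with a probe set went from 3366 to 3486 for Kupffer cells and leukocytes, from 454 to 408 for stellate cells, from 152 to 165 for endothelium and from 843 to 748 for bile duct. In bulk RNA such as this, a change in the number of cells of a type and in RNA per cell cannot be told apart. Of the 3 probe sets for 18S ribosomal RNA, 1 was above the floor on both arrays, at 69.6 and 55.2 (-0.34), 1 passed it on the DMSO array alone, at 49.5 and 31.1, and 1 on neither, at 27.6 and 20.7. The 3' and 5' probe sets of beta-actin both differed by 0.04. The part of these shifts in the results below was not tested.

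Gadd45a stood apart from the rest of the group. It read an intensity of 158 with DMSO and 289 with PCN, a log2 difference of 0.87 or 1.83-fold. This placed it 9th of 6449 measured genes by difference, between Cyp3a11 at 0.90 and Odc1, the first enzyme of polyamine synthesis, at 0.81. Because array intensity depends on each probe set, levels are compared between the arrays for 1 gene and not between genes. Levels of different genes serve only to pick genes of like intensity and those nearest to Gadd45a. Against 1123 measured genes whose mean log2 intensity lay within 0.5 of its own, the difference of Gadd45a was reached or passed by 2. The 5th and 95th percentiles of those genes were -0.36 and 0.34. Since Gadd45a was chosen by this same difference, its high rank and its place beyond these genes follow from the choice and support nothing.

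**Figure D1:**
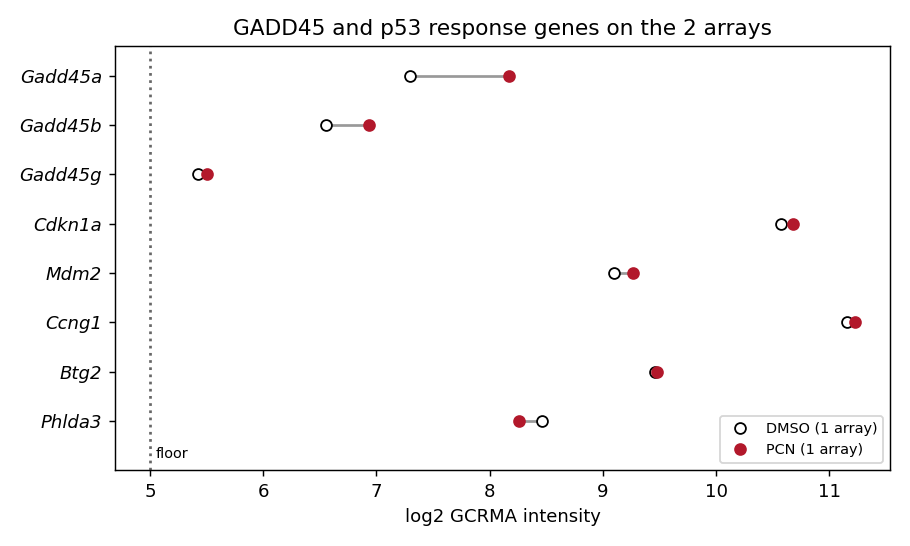
Log2 GCRMA intensity (horizontal axis) of the 8 genes with a probe set, with open circles for the DMSO array and filled circles for the PCN array, 1 array each, and a dotted line at the floor of 5. Gadd45a moved from 7.30 to 8.17, Gadd45b from 6.55 to 6.93, and the circles of the other genes lie within 0.20 of each other.

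The relatives of Gadd45a differed less. Gadd45b read 93.9 with DMSO and 122 with PCN, a log2 difference of 0.38 (just under 1.3-fold), which ranked 214th of the measured genes. Of 1181 genes of like intensity, 65 (5.5%) were as far in the same direction, so its difference lay near the edge of what genes at that level showed. Gadd45g, the third paralogue, read 43.0 and 45.3, a log2 difference of 0.08, and 408 of 1206 genes of like intensity were as far in that direction. Its signal lay just above the floor, and its difference was within the SD of the control probe sets. The log2 difference of Gadd45a exceeded that of Gadd45b by 0.49 and that of Gadd45g by 0.80, and that of Gadd45b exceeded that of Gadd45g by 0.30. All 3 family members were higher with PCN, in the order a, b, g, and no error can be put on these gaps without replicates.

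The start-site windows of these genes are shown because the family members differed between these 2 arrays by unequal amounts, and so that the letters at each start can be compared. All 8 genes were matched by symbol to the RefSeq promoter table (GRCm38.p6), which gives 250 bases before and 50 after a start. The motifs sought on both strands were the CCAAT box, the TATA box TATAAA, the octamer ATTTGCAT, the E-box CACGTG, the nuclear receptor half-site AGGTCA and the p53 half-site consensus, with positions counted from the start site (-1 is the base before it). Pairs of exact p53 half-sites 0 to 13 bases apart were also sought, and each site of such a pair also counts as a half-site. Half-sites with a mismatch were not sought, so a p53 element that holds such a site is missed or marked in part. Capitals mark any of these matches. The windows lie at chr6:67037358-67037657 on the minus strand for Gadd45a, chr10:80929841-80930140 on the plus strand for Gadd45b and chr13:51846425-51846724 on the plus strand for Gadd45g, each printed 5′ to 3′ along its gene.
Gadd45a: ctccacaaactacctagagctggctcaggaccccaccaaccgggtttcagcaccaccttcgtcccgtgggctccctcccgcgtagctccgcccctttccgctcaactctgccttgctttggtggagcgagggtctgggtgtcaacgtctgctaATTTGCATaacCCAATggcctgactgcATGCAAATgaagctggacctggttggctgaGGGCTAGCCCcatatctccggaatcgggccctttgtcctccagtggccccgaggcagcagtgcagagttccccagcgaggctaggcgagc
Gadd45b: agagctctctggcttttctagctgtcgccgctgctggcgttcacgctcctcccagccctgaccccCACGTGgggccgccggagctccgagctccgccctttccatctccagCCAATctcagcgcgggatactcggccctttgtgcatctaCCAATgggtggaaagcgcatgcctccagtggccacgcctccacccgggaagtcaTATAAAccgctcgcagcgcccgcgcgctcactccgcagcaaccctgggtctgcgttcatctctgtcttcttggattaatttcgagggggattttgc
Gadd45g: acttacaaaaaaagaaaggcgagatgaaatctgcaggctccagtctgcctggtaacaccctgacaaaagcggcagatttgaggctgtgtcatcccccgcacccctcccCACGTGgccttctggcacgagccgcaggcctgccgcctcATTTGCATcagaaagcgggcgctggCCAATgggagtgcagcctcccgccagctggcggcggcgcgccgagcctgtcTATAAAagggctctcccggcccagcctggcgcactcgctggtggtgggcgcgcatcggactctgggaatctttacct
The GC content was 61%, 62% and 62.3% in this order, against a median of 52.7% over all 32851 windows of the table. Gadd45a was the one of the 3 without TATAAA, which stood at -46 to -41 in Gadd45b and at -27 to -22 in Gadd45g and in 13.6% of all windows. CCAAT was found in all 3 and in 37.4% of all windows. The octamer occurred at -97 to -90 and, on the other strand, at -70 to -63 of Gadd45a, on either side of its CCAAT at -86 to -82, and once in Gadd45g at -103 to -96, against 1.74% of all windows. CACGTG was in Gadd45b and Gadd45g but not in Gadd45a, and in 7.15% of all windows. A p53 half-site, GGGCTAGCCC, lay at -40 to -31 of Gadd45a, and 8.36% of all windows hold a half-site. AGGTCA was found in none of these 3 windows, among the group in Btg2 alone, and in 16.3% of all windows. A match is a match of letters and not a shown binding site, and a link between these letters and the unequal log2 differences was not tested.

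**Figure D2:**
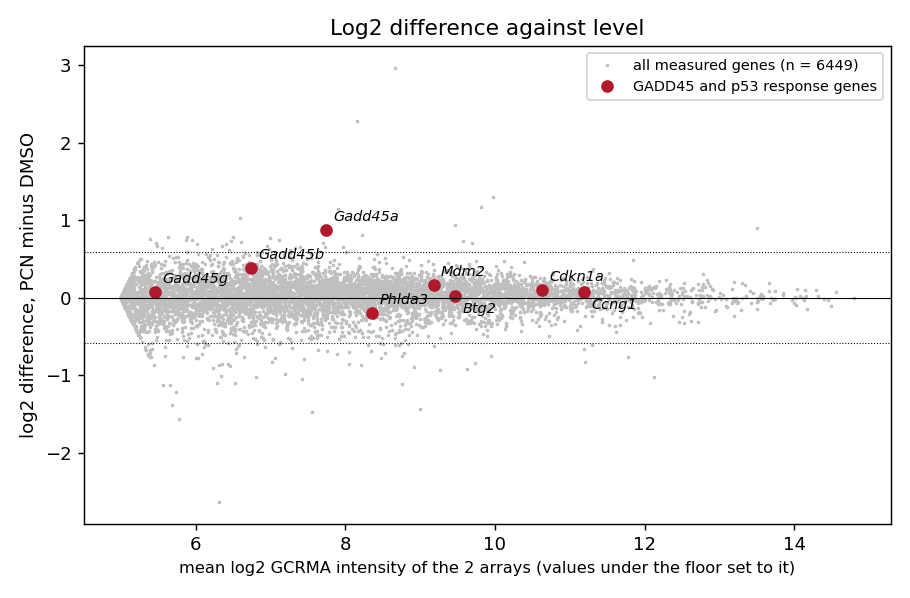
Log2 difference, PCN minus DMSO (vertical axis), against mean log2 intensity of the 2 arrays (horizontal axis) for all 6449 measured genes in grey and the 8 GADD45 and p53 response genes in red, with dotted lines at 1.5-fold. Gadd45a at 0.87 is the only red point beyond the lines, and Phlda3 at -0.20 is the only one below 0.

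The arrest genes of the group, Cdkn1a, Ccng1 and Btg2, differed by 0.02 to 0.10 on the log2 scale. Cdkn1a, which encodes the CDK inhibitor p21, read 1524 with DMSO and 1636 with PCN, a log2 difference of 0.10 (1.07-fold). Of 536 genes of like intensity, 149 (27.8%) were as far in the same direction, and the difference was about the SD of the control probe sets. Both of its values lay well above the floor and close to each other. Its upstream start window, chr17:29090729-29091028 on the plus strand (GRCm38.p6), is shown because it was the only window of the group with a pair of exact half-sites.
Cdkn1a: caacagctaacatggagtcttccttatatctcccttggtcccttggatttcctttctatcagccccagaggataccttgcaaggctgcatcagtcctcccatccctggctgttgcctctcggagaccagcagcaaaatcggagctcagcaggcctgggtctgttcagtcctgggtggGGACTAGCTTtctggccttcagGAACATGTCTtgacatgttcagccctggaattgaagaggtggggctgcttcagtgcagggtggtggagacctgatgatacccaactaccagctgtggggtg
The first capitals, at -73 to -64, and the second, at -51 to -42, are its exact half-site matches, and 0.0731% of all windows hold such a pair. The bases right after the second, tgacatgttc, miss the consensus at their first base only and so are not marked. Which of these sites p53 binds was not tested. The second start window of Cdkn1a held none of the motifs. Sites outside the windows were not searched, and a link between these matches and the log2 differences was not tested.

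Ccng1, which encodes cyclin G1, a p53 target that acts with a phosphatase subunit on MDM2, read 2283 and 2394. Its log2 difference was 0.07 (1.05-fold), and 132 of 361 genes of like intensity were as far in that direction. The half-site GGGCAAGCCT lay at -185 to -176 of its window. Btg2, an antiproliferative protein that binds the CCR4-NOT deadenylase complex, read 706 and 715. This was a log2 difference of 0.02, under the median of 0.04 of genes of like intensity, and its sign turned with the scaling: it was -0.02 after quantile normalization, -0.02 with the loess trend removed and -0.01 with median centring.

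The remaining genes of the group, Mdm2 and Phlda3, went in opposite directions. Mdm2, the ubiquitin ligase of p53 and itself a p53 target, read 550 with DMSO and 615 with PCN, a log2 difference of 0.16 (1.12-fold). This was the highest difference among the 5 genes from Cdkn1a to Phlda3, 0.71 below that of Gadd45a, and 174 of 882 genes of like intensity (19.7%) were as far in that direction. The half-site GAACTTGCCT was at -186 to -177 of its listed window. Phlda3, a p53 target that binds phosphoinositides and restrains AKT, read 351 with DMSO and 306 with PCN, a log2 difference of -0.20 (1.15-fold lower). It was the one gene of the group that was lower, and 122 of 1032 genes of like intensity (11.8%) were as far in that direction.

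**Figure D3:**
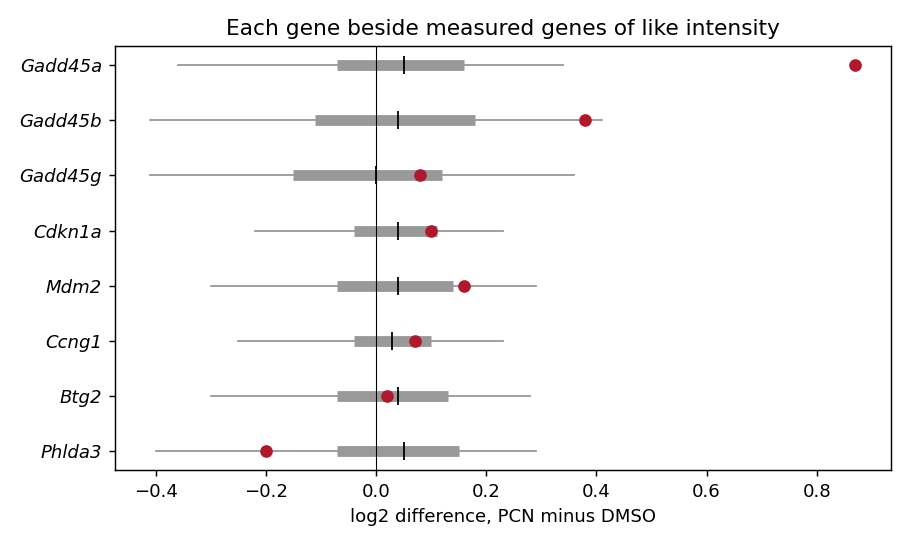
Log2 difference, PCN minus DMSO (horizontal axis), of each of the 8 genes (red points, 1 array per group), beside measured genes within 0.5 of its mean log2 intensity: thin grey lines run from their 5th to 95th percentile, thick ones from the 25th to the 75th, and ticks mark the median. Gadd45a at 0.87 lies beyond the 95th percentile of 0.34, and Gadd45b at 0.38 lies inside its own of 0.41, as do the other 6 genes.

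Counted together, 7 of the 8 genes were higher with PCN, against 57.6% of all measured genes, and after Gadd45a the highest log2 difference was 0.38. Since Gadd45a helped to choose the group, nothing is read from these counts. At 1.2-fold, 2 genes were higher, Gadd45a and Gadd45b, and none lower, beside 9.06% of all measured genes higher and 8.95% lower. At 1.3-fold, Gadd45a alone was higher, since Gadd45b fell just short, and none was lower, beside 3.3% and 4.28% of all measured genes. At 1.5-fold, Gadd45a was again the only one higher and none was lower, beside 0.636% and 1.3%. The median log2 difference of the 8 genes was 0.09, and that of the 7 besides Gadd45a was 0.08. The 5 p53 genes, from Cdkn1a to Phlda3, had a median of 0.07 and a range from -0.20 to 0.16, none of them at 1.2-fold.

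Further known p53 targets were set beside the group from lists made by function. Of 35 such genes, 32 had a probe set and 21 were measured. PCN was higher in 14 of the 21 (66.7%, beside 57.6% of all genes) and lower in 7, with a median log2 difference of 0.04. The range was -0.26 to 0.41, so none came near Gadd45a, which was chosen by its difference. At 1.2-fold, 4 were higher (19%, beside 9.06% of all genes) and none lower. They were Epha2, a receptor tyrosine kinase, from 173 to 230 (log2 difference 0.41), Siva1, a pro-apoptotic protein, from 103 to 133 (0.37), Plk3, a polo-like kinase of the stress response, from 98.5 to 124 (0.33), and Plk2, its relative, from 1324 to 1595 (0.27). Xpc, the damage sensor of nucleotide excision repair, read 98.6 and 116 (0.24). Bbc3, the gene of the BH3-only protein PUMA, read 45.9 and 38.3 (-0.26), the lowest of the 21. The cell death targets other than these included Fas at 49.4 and 45.8, Perp at 1736 and 1798 and Trp53inp1 at 849 and 916, which were named after their values were seen. Among the targets under the floor on both arrays were Pmaip1, Sesn1, Ddb2, Aen and Rrm2b, also named afterwards, so no difference is given for them.

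Of 21 listed symbols of genes that control p53, 18 had a probe set and 10 were measured. PCN was higher in 6 (60%, beside 57.6% of all genes) and lower in 4, with a median log2 difference of 0.02. At 1.2-fold, 1 of the 10 was higher and 2 were lower, beside 9.06% and 8.95% of all genes. Atm, the kinase that signals DNA double-strand breaks, read 199 with DMSO and 149 with PCN (-0.43, 1.34-fold lower), the largest difference of this list. Daxx, a chromatin-associated protein that binds MDM2, was the other gene lower by 1.2-fold, from 94.6 to 77.7 (-0.28), and was named after its value was seen. Ep300, an acetyltransferase and coactivator of p53, read 52.8 and 65.4 (0.31). The MDM2 relative Mdm4 and the p53 relatives Trp63 and Trp73 were under the floor on both arrays.

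The measured partners of GADD45 proteins stayed close to 0. Of 14 listed, 10 had a probe set and 7 were measured, 5 higher (71.4%, beside 57.6% of all genes) and 2 lower, with a median of 0.05 and none at 1.2-fold. Pcna, Ccnb1 (cyclin B1), Map2k7 and Tdg were not analysed here, and Map2k6, Mapk8 and Tet1 were under the floor on both arrays. Nothing is known here of their differences. Gadd45gip1, a mitochondrial ribosome protein that binds GADD45 proteins, read 178 and 200 (0.17), and Cdk1, the mitotic kinase, read 301 and 330 (0.13). Map3k4, the kinase that GADD45 proteins activate, read 131 and 134, and Mapk14, the p38α kinase, read 352 and 363, both named after their values were seen. The other genes once named for growth arrest and DNA damage differed by less than the control probe SD: Ppp1r15a (GADD34), a subunit of the phosphatase that restores translation after stress, read 121 and 118 (-0.05). Ddit3 (GADD153, or CHOP), a transcription factor of endoplasmic reticulum stress, read 190 and 193 (0.02), and stood at -0.01 with median centring and at -0.03 once a loess trend was taken out.

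Of 15 listed transcription factors known to act on GADD45 genes, 10 were measured, 5 higher (50%, beside 57.6% of all genes) and 5 lower. Their median log2 difference was 0.00. At 1.2-fold, 1 was higher and 1 lower (10% each), beside 9.06% and 8.95% of all genes. Ppara, the lipid-sensing receptor PPARα, read 377 with DMSO and 266 with PCN (-0.50), and Myc, which is known to repress Gadd45a, read 784 and 1032 (0.40). Named after their values were seen, Foxo1 read 323 and 324, Atf4 1202 and 1187, Egr1 1047 and 1024, and Rela 1022 and 1030. Nr1i3, the gene of the xenobiotic receptor CAR, was under the floor on both arrays.

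**Figure D4:**
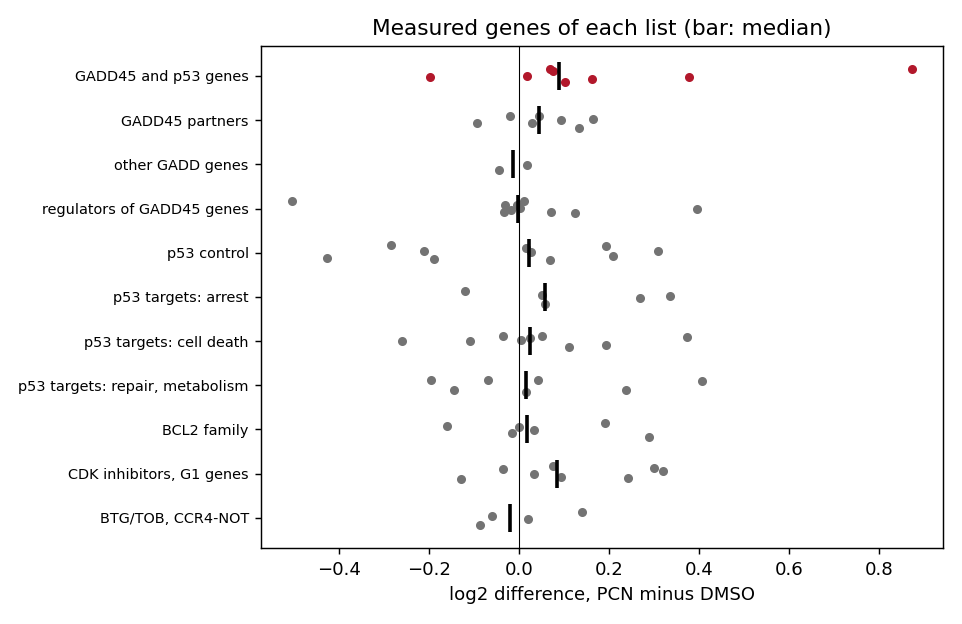
Log2 difference, PCN minus DMSO (horizontal axis), of each measured gene in the GADD45 and p53 group (red) and in 10 lists of related genes (grey), with vertical bars at the medians and points spread vertically at random for legibility. List medians lie between -0.02 and 0.08, and the highest grey point is Epha2 at 0.41, against 0.87 for Gadd45a.

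Near relatives of the group and the genes it acts with differed by less than 1.5-fold where measured. Ccng2, cyclin G2, read 207 on both arrays. Phlda1 read 1515 and 1747 (0.21) and Phlda2 169 and 143 (-0.24), both relatives of Phlda3 with a pleckstrin homology domain. The CDK inhibitor genes Cdkn1b and Cdkn1c were under the floor on both arrays, which left Cdkn1a as the only one of its family measured. The list of CDK inhibitors, G1 cyclins and their kinases had 8 measured genes, which were cyclins, kinases and Rb1 and no inhibitor. Of these 8, 6 were higher (75%, beside 57.6% of all genes) and 2 of them by 1.2-fold (25%, beside 9.06%). The 2 were Ccne2, cyclin E2, from 77.5 to 96.8 (0.32) and Ccnd1, cyclin D1, from 138 to 170 (0.30). Of 6 measured BCL2 family genes, 4 were higher (66.7%, near the 57.6% of all genes). Bnip3l, a mitophagy receptor, went from 373 to 455 (0.29), Bad, a pro-apoptotic member, from 95.8 to 109 (0.19) and Bok, a relative of Bax, from 101 to 90.4 (-0.16). The relative Bak1 was under the floor on both arrays. Chek2 of the p53 control list and Bik of the BCL2 family, each under the floor on 1 array, are counted by their bounds. Of the 4 measured genes of the BTG and TOB family and its deadenylases, Cnot7 had 0.14 and Cnot8 -0.09. Btg1 and Btg3 were not analysed here. Over all of these lists, 71 genes were measured, 45 higher (63.4%, beside 57.6% of all genes) and 26 lower. This split rested on small differences: it was 33 higher and 38 lower with median centring and 35 and 36 once a loess trend was taken out. With quantile normalization it was 37 and 33, where not all of the 71 genes counted as higher or lower. Of the 71 genes, 9 (12.7%) were higher by 1.2-fold and 3 (4.23%) lower, beside 9.06% and 8.95% of all genes, and with median centring these counts were 7 and 5. None reached 1.5-fold in either direction, beside 0.636% and 1.3% of all genes.

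By Euclidean distance over the log2 intensities of the 2 arrays, the 5 genes nearest to Gadd45a were Morc4, Ppp1r12a, Krt20, Plekhg3 and Dkc1. Morc4, a zinc finger protein of the MORC family, read 163 and 266 (distance 0.13). Ppp1r12a, the targeting subunit of myosin phosphatase, read 170 and 268 (0.15). Krt20, a keratin, read 160 and 355 (0.30), Plekhg3 189 and 259 (0.30), and Dkc1, the pseudouridine synthase dyskerin, 194 and 272 (0.31). None belongs to the lists above, and nearness over 2 arrays says no more than that both values were close. The distance rests on levels, which depend on each probe set, so it does not rank genes by their difference.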

How the data were processed

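Per the labels' protocols, 5 µg of pooled RNA per group was labelled with biotin for 1 Affymetrix array, 2 arrays in all. The deposited intensities are GCRMA values on a linear scale, 1.13 to 28482, made with GCRMA 2.2.0 per the submitters' processing notes. The probe set definition is not given in the sources used here. GCRMA brings arrays to a common distribution, which hides any shift in the total RNA of a cell. Symbols came from the platform annotation, 1 probe set per gene: of 16395 probe sets, 15644 had 1 symbol, 64 were controls and 687 were unnamed here.

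The intensities were taken to log2 in Python 3.11.15 (numpy 2.4.6, pandas 2.3.3, statsmodels 0.14.6). Values under the floor of 5 were raised to it, and genes under it on both arrays were left out. The members, lists and thresholds were chosen with earlier results of these data known. Named genes are the members, their near relatives, the 2 measured genes of each list with the largest absolute difference, Nr1i2, Cyp3a11 and the 5 genes nearest to Gadd45a. Precision is limited by the number of arrays. The procedure was tested on simulated data. Alternatives were floors of 4 and 6, no floor, quantile normalization, median centring, a loess trend removed and a 1.3-fold threshold.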

Additional observations from a re-analysis of the deposited data

How the results depend on the processing

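The 39 named and measured genes had 231 values under the other floors and scalings. Of these, 230 stayed within the control probe SD of the reported value, and Ep300 stood at 0.03 with a floor of 6. Much of this was fixed in advance, since a changed floor cannot move a gene that lies above it on both arrays. Median centring takes the same 0.03 from every gene, which is less than that SD. The count therefore says little about how firm the values are. Gadd45a ranged from 0.82 to 0.87, Gadd45b from 0.34 to 0.38, Gadd45g from 0.04 to 0.11 and Phlda3 from -0.24 to -0.20. With a floor of 6, Gadd45g was not measured. The number of lower members was 2 in place of 1 with quantile normalization, median centring and the loess trend removed, where Btg2 turned below 0. At 1.3-fold in place of 1.2-fold, 1 member and 2 list genes were higher. The list genes, 45 higher and 26 lower as reported, split into 33 and 38 with median centring and 35 and 36 with the loess trend removed. Those that were lower numbered 16 with a floor of 6 and 46 without a floor, in place of 26, since the floor sets how many genes are counted; those lower by 1.2-fold numbered 5 with a floor of 4, 5 with median centring and 7 without a floor, in place of 3. With 1 array a group, no replicate could be left out. No paired analysis was possible because there were no replicates. Signal near the floor limits Gadd45g, Bbc3, Chek2 and Bik, and also Fas, Ep300, Stab2, Acta2 and Lyve1, among others.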
